A study of Homo sapiens with 22 samples.

Results

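RGS proteins (regulators of G protein signaling) were examined through 9 genes, RGS2, RGS3, RGS4, RGS5, RGS10, RGS12, RGS16, RGS17 and RGS19, in RNA sequencing of IMR90 human lung fibroblasts. The genes were chosen by symbol from a list drawn up when the group levels and fold changes of these same libraries were already known, and no threshold was recorded. P values of these genes come from the fit over all genes, describe these libraries and are not independent evidence. RGS16 is in the list although it stayed below 1 CPM (counts scaled to a library of 1000000) in every library, and RGS20, which passed the filter on low counts, is not. The 9 symbols fall on 10 of the 60664 gene rows of the count tables, because RGS5 labels 2 rows, and 8 of the rows were among the 9770 genes tested. RGS4 and RGS2 moved in opposite directions 60 min after epidermal growth factor (EGF), and both were higher in cells that received MSK2 siRNA, whereas RGS10 and RGS17 were lower in those cells.

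The 22 libraries form 6 groups of 3 or 4. All cells were IMR90, an established fibroblast line of fetal lung, and all were exposed to 10 nM siRNA, renewed daily, for 72 h and kept without serum for the last 24 h. In 3 groups the siRNA was a nontargeting control, and these cells then received PBS (4 libraries, labelled 60 min), 750 pM EGF for 30 min (4 libraries) or 750 pM EGF for 60 min (3 libraries). The other 3 groups received siRNA against MSK2, a nuclear kinase downstream of growth factor receptors that is encoded by RPS6KA4, followed by the same PBS (4 libraries), EGF 30 min (4 libraries) and EGF 60 min (3 libraries) treatments. The comparisons address which transcripts EGF changes and which of them depend on MSK2. A single cell line and a single siRNA product against MSK2 were used, so an effect of losing MSK2 and another effect of that product cannot be told apart. The labels do not say that libraries of a group came from separate cultures, so P values measure only the spread between these libraries, which may be technical.

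RGS proteins shut off signals from G protein coupled receptors. An activated receptor loads the Gα subunit with GTP, and the RGS domain binds that Gα and speeds the hydrolysis of GTP, which returns the G protein to its resting state. RGS2 acts mainly on Gαq, RGS4, RGS5 and RGS16 act on Gαi and Gαq, RGS10 acts on Gαi, and RGS17 and RGS19 belong to a family that acts on Gαi and Gαz. RGS3 and RGS12 carry further domains beside the RGS domain. Several RGS transcripts are known to change quickly after cell stimulation, and RGS4, RGS5 and RGS16 proteins are degraded through the N-degron pathway, so transcript and protein levels need not move together.

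Depth ranged from 7893209 to 22244216 gene counts per library, with a median of 15037489.5. RPS6KA4 stood at 11.1 to 26.9 CPM in the control siRNA libraries and at 1.74 to 3.77 CPM in the MSK2 siRNA libraries, with log2 fold changes of -3.05, -2.80 and -2.86 after PBS, EGF 30 min and EGF 60 min. RPS6KA5, which encodes the related kinase MSK1, was over the filter level in 2 libraries. It was called higher with MSK2 siRNA after EGF 30 min (log2 fold change 0.46, edgeR adjusted P = 0.0358). After PBS (0.15) and EGF 60 min (0.25) RPS6KA5 was not called, and its part in the RGS results was not tested. All 10 fibroblast markers passed the filter, and 0 were called after EGF. With MSK2 siRNA 6, 4 and 5 of the 10 were called lower after PBS, EGF 30 min and EGF 60 min. In the same order, 2, 3 and 2 were called higher. Of all genes, 12.6%, 15.2% and 10.1% were called lower and 12.2%, 14.9% and 9.37% higher in these comparisons. The part of these markers in the RGS results was not tested. The summed level of 5 leukocyte markers never exceeded 1.35 CPM, that of 5 endothelial markers 6.49 CPM and that of 5 epithelial markers 16.8 CPM. The epithelial marker CDH1 passed the filter, at 4.74 to 14.7 CPM. Mitochondrial genes took 2.04 to 2.85% of counts in the MSK2 siRNA PBS libraries against 1.45 to 1.95% in the control siRNA PBS libraries, ranges that do not overlap. The ranges did not overlap between the siRNAs after EGF 60 min either (1.16 to 1.59% with control siRNA, 1.82 to 1.95% with MSK2 siRNA), nor, within MSK2 siRNA, between EGF 60 min and PBS, and the part of this in those 3 comparisons was not tested. These are bulk samples, in which fewer cells of a type and less RNA per cell cannot be told apart.

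RGS2 and RGS4 were the members called after EGF, and the sequence upstream of their starts is shown because MSK2 is known to phosphorylate CREB, the factor that binds the cyclic AMP response element (CRE). RGS2 lies at chr1:192809039-192812275 and RGS4 at chr1:163068775-163076802 (GRCh38, GENCODE v44, both on the plus strand). The windows, credited to RefSeq (GRCh38.p14), were read at the start of each gene's reference transcript, and capitals mark CGTCA, the reverse complement of the CRE core TGACG. The RGS2 stretch is chr1:192808789-192809038, the 250 bases before the start. The RGS4 stretch is chr1:163069111-163069251 and ends 109 bases before the start, where exons of longer RGS4 transcripts begin. It lies inside the RGS4 gene span, downstream of the first annotated start at 163068775, so it is upstream of later starts only.
RGS2: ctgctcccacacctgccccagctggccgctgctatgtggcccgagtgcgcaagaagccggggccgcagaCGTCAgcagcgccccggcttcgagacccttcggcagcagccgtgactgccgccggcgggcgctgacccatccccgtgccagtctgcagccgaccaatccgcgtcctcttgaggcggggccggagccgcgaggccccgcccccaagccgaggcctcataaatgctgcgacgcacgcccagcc
RGS4: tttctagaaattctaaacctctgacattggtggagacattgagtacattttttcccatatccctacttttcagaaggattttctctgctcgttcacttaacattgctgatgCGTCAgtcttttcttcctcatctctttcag
The CRE core begins 181 bases before the RGS2 start and 139 bases before the RGS4 start, on the minus strand in both. Of 23 RefSeq windows of 300 bases at starts of the 9 genes, 5 held TGACG on either strand. This count is near the share of all 35116 windows that held it, 24.6%. Of the 5, 2 were overlapping RGS4 windows with the same site, 1 was that of RGS2, and the others were an RGS3 window (10 bases before a start, plus strand) and an RGS12 window (185 bases before a start, plus strand), genes that were called in no comparison. None of the 23 held the full CRE TGACGTCA, which contains TGACG and occurred in 1.85% of all windows, the AP-1 motif TGANTCA (7.71%), the CArG box of SRF (1.29%) or the EGR motif GCGTGGGCG (0.795%). These matches are letters in a window and do not show binding.

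Levels were compared between genes per length, in RPKM, the CPM divided by the kilobases of merged exons. Exons of all annotated transcripts were merged and the transcripts expressed are not known, so the order depends on this length. In control siRNA cells with PBS, RGS3 (13.152 kb) had a mean of 74.1 CPM and RGS12 (13.762 kb) 39.8 CPM. RGS19 (2.028 kb) had 14.9 CPM there, RGS2 (2.088 kb) 82.0 CPM and RGS10 (1.274 kb) 92.1 CPM. In control siRNA cells with PBS, RGS10 had the highest level of the 9 at 72.3 ± 3.76 RPKM (mean ± SD, n = 4), followed by RGS2 at 39.3 ± 3.59 RPKM. A much lower set came next, with RGS19 at 7.37 ± 1.06, RGS3 at 5.64 ± 0.577 and RGS4 at 5.24 ± 1.21 RPKM, neighbours whose libraries overlapped. RGS17 (3.03 ± 0.257 RPKM) and RGS12 (2.89 ± 0.372 RPKM) also overlapped, RGS5 stood at 1.73 ± 0.293 RPKM, and RGS16 at 0.0809 ± 0.0430 RPKM. The order differed in MSK2 siRNA cells with PBS, where RGS2 led at 72.9 ± 1.68 RPKM, RGS10 was at 40.1 ± 2.65 RPKM, and RGS4, at 10.3 ± 1.53 RPKM, stood above RGS19 in every library. RGS17, at 1.87 ± 0.232 RPKM, was there below RGS12 at 2.85 ± 0.195 RPKM and overlapped RGS5 at 2.32 ± 0.148 RPKM. After 60 min of EGF the highest and second highest members differed in control siRNA cells, at 57.0 ± 6.32 RPKM for RGS10 and 18.4 ± 1.08 RPKM for RGS2 (n = 3), whereas with MSK2 siRNA RGS2 (51.3 ± 6.89 RPKM) and RGS10 (39.6 ± 6.24 RPKM) overlapped.

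**Figure D1:**
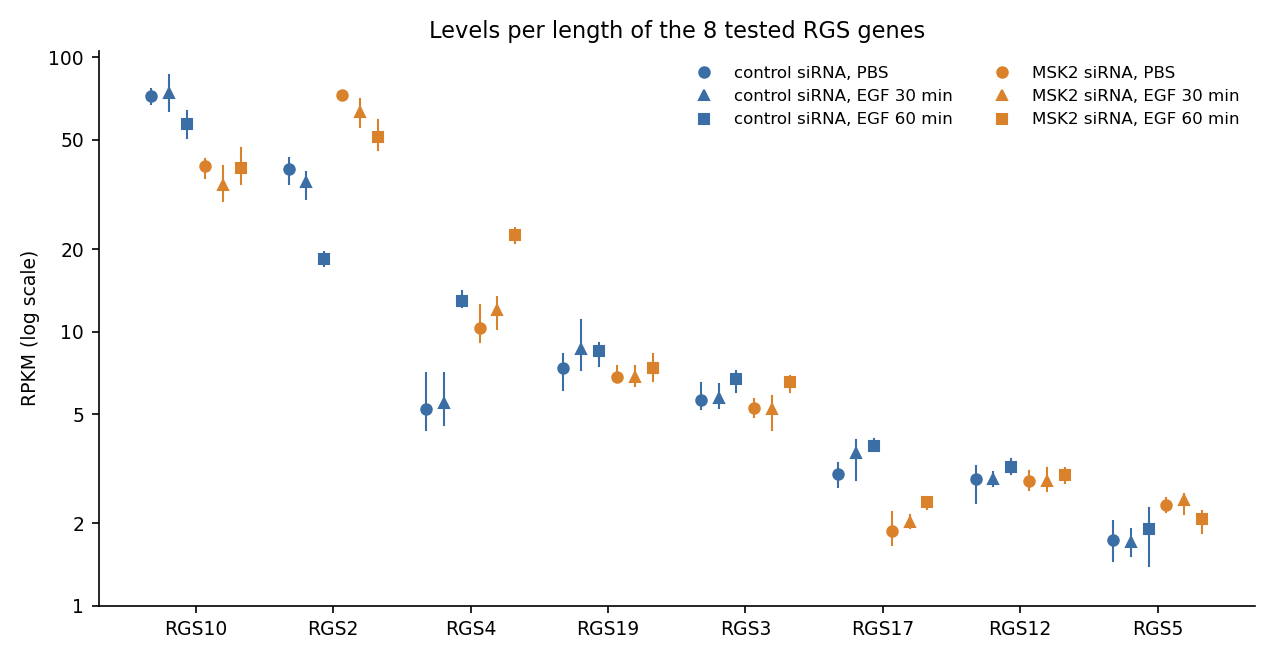
Levels per length of the 8 tested RGS genes in RPKM (log scale, vertical axis) for the 6 groups, with symbols at the group mean and lines from the lowest to the highest library. RGS10 is highest in the 3 control siRNA groups and RGS2 in the 3 MSK2 siRNA groups, where their libraries overlap after EGF 60 min.

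In the comparisons of EGF with PBS, calls were few and came at 60 min. The PBS libraries are labelled 60 min, so EGF 30 min has no PBS group of the same duration. After 30 min of EGF, 0 of the 8 tested genes passed an adjusted P of 0.05 (edgeR quasi-likelihood test, Benjamini-Hochberg adjustment over 9770 genes) with control siRNA, where 0.614% of all genes were called, and 0 of 8 with MSK2 siRNA, where 0.778% were called. At an unadjusted P under 0.05 there was 1 gene in each (RGS17 and RGS2, respectively); DESeq2 and edgeR's exact test also called 0, with 1 gene at that unadjusted level with control siRNA and 2 with MSK2 siRNA. After 60 min with control siRNA, RGS4 was called higher, beside 2.5% of all genes, and RGS2 lower, beside 0.154%. Group levels and fold changes were known when the genes were picked. Nothing is therefore read from the counts of members called in this or any other comparison. After 60 min with MSK2 siRNA, RGS4 was again called higher, beside 2.11% of all genes, and RGS2 lower, beside 0.0512%. The median log2 fold change of the 8 genes was 0.18 with control siRNA and 0.09 with MSK2 siRNA at 60 min, and that of all genes was -0.01 and -0.02.

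The comparisons of MSK2 siRNA with control siRNA called more members, and more of all genes, and the member counts are again a description. After PBS, RGS2, RGS4 and RGS5 were higher and RGS10 and RGS17 lower, so that 3 of 8 were called higher beside 12.2% of all genes and 2 of 8 lower beside 12.6%. The same 5 genes were called in the same directions after EGF 30 min, beside 14.9% of all genes higher and 15.2% lower. After EGF 60 min RGS2 and RGS4 were called higher, beside 9.37% of all genes, and RGS10 and RGS17 lower, beside 10.1%. RGS3, RGS12 and RGS19 were called in none of these 3 comparisons, and the median log2 fold change of the 8 genes lay between -0.08 and -0.06 in each of them, near the median of all genes (0.00 to 0.01).

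**Figure D2:**
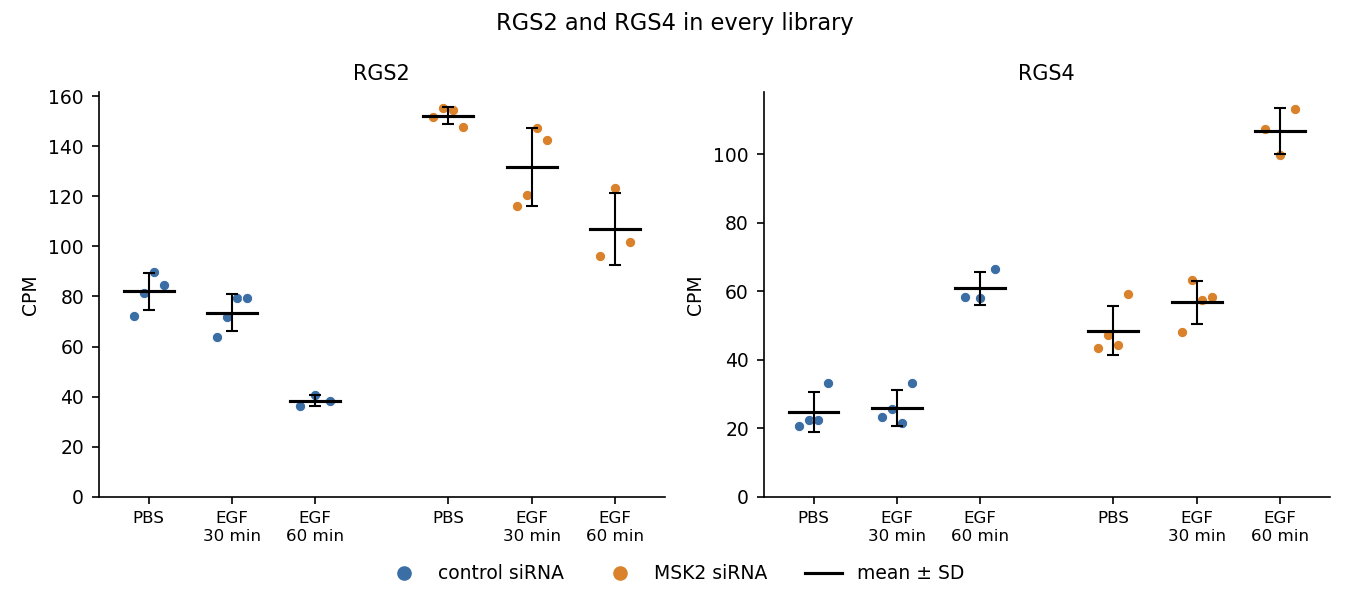
CPM of RGS2 (left) and RGS4 (right) in each of the 22 libraries (points), with the mean and SD of each group, for control siRNA (blue) and MSK2 siRNA (orange). RGS2 is between 36.2 and 40.7 CPM after EGF 60 min with control siRNA, below every other library, and RGS4 is between 99.8 and 113.2 CPM after EGF 60 min with MSK2 siRNA, above every other library.

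RGS2, the Gαq-directed member, was lower 60 min after EGF and higher with MSK2 siRNA in every treatment. The control siRNA libraries held 72.1, 81.3, 90.0 and 84.7 CPM after PBS, 63.6, 71.9, 79.3 and 79.5 CPM after EGF 30 min, and 36.2, 40.7 and 38.1 CPM after EGF 60 min. The MSK2 siRNA libraries held 151.5, 155.3, 154.3 and 147.5 CPM after PBS, 115.9, 120.7, 147.4 and 142.7 CPM after EGF 30 min, and 96.0, 123.3 and 101.9 CPM after EGF 60 min. Every MSK2 siRNA library was therefore above every control siRNA library, and within each siRNA the EGF 60 min libraries were all below the PBS libraries. How many of all tested genes separate the siRNAs as fully was not counted, here or for RGS10 and RGS17 below. With control siRNA, EGF for 60 min gave a log2 fold change of -1.09 (SE 0.11), reported as a description. The value was -0.51 (SE 0.10; fold 0.704; edgeR adjusted P = 0.00162) with MSK2 siRNA. At 30 min it was -0.15 (SE 0.09) with control siRNA and -0.21 (SE 0.09) with MSK2 siRNA, and neither passed (edgeR adjusted P = 0.997 and 0.484). Between siRNAs, RGS2 was 1.86-fold higher with MSK2 siRNA after PBS (log2 fold change 0.89, SE 0.09; edgeR adjusted P = 2.15e-08), 1.79-fold higher after EGF 30 min (adjusted P = 6.23e-08) and 2.79-fold higher after EGF 60 min (adjusted P = 8.64e-11). The gene span overlaps the antisense lncRNA ENSG00000285280, but no base of their exons is shared in this annotation.

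RGS4, a regulator of Gαi and Gαq, was higher both 60 min after EGF and with MSK2 siRNA. It was measured at 20.7, 22.5, 22.6 and 33.2 CPM after PBS, at 23.3, 25.7, 21.5 and 33.3 CPM after EGF 30 min, and at 58.3, 58.0 and 66.5 CPM after EGF 60 min with control siRNA. With MSK2 siRNA it was at 43.3, 47.4, 44.4 and 59.1 CPM after PBS, at 48.2, 63.4, 57.5 and 58.3 CPM after EGF 30 min, and at 107.4, 99.8 and 113.2 CPM after EGF 60 min. The 60 min libraries were above all PBS and 30 min libraries of the same siRNA, while the PBS and 30 min libraries overlapped. One MSK2 siRNA PBS library, replicate 4 at 59.1 CPM, reached the range of control siRNA cells after EGF 60 min while the other 3 stayed below it, and the group after both MSK2 siRNA and EGF 60 min stood above all others. With control siRNA the 60 min log2 fold change was 1.32 (SE 0.14), again a description. With MSK2 siRNA it was 1.13 (SE 0.14; fold 2.19; edgeR adjusted P = 9.86e-07). The effect of MSK2 siRNA was a 2.00-fold increase after PBS (log2 fold change 1.00, SE 0.14; edgeR adjusted P = 2.13e-06), a 2.19-fold increase after EGF 30 min (adjusted P = 2.20e-07) and a 1.75-fold increase after EGF 60 min (adjusted P = 0.000192). The EGF and siRNA comparisons of a gene share PBS libraries, so their values are not independent of each other.

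**Figure D3:**
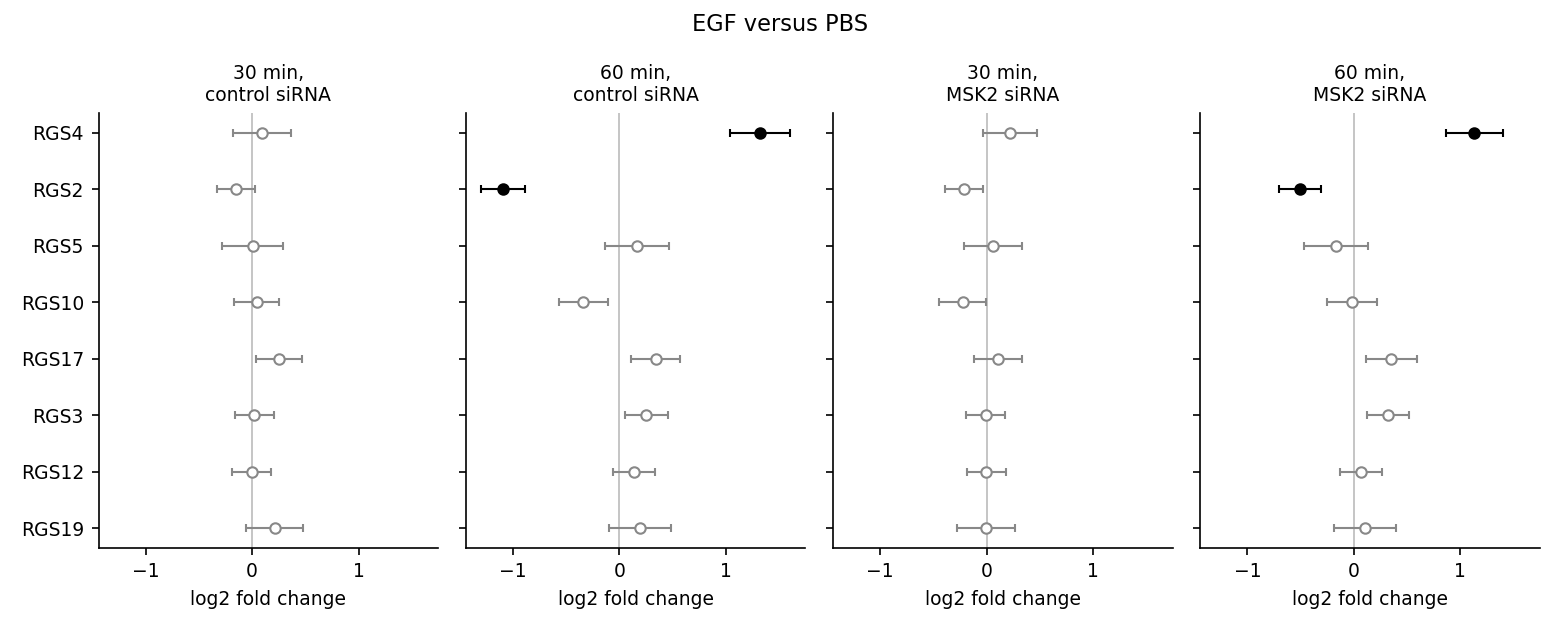
Log2 fold change of EGF against PBS (horizontal axes) for the 8 tested RGS genes in 4 comparisons, with approximate 95% intervals. Filled points have an edgeR adjusted P under 0.05. The filled points are RGS4, at 1.32 and 1.13, and RGS2, at -1.09 and -0.51, at 60 min with control siRNA and MSK2 siRNA respectively.

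The difference between the EGF responses of the siRNAs was tested as an interaction, and 0 of the 8 genes passed at either time (0% of all genes called at 30 min and 0% at 60 min, edgeR). Across all genes an unadjusted P under 0.05 was reached by 661 at 30 min and 216 at 60 min, and DESeq2 called 0 and 3 genes, none of them a member. RGS2 at 60 min was the member with an unadjusted P under 0.05 by either tool. Its fall was smaller with MSK2 siRNA by 0.59 on the log2 scale (SE 0.14; interval 0.31 to 0.87; unadjusted P = 0.000321; edgeR adjusted P = 0.784). For RGS4 the response at 60 min differed by -0.19 (SE 0.20; interval -0.58 to 0.20), for RGS10 by 0.33 (interval -0.00091 to 0.65), and for RGS5 by -0.33 (interval -0.76 to 0.09). A difference between the siRNAs in the EGF response of these genes was thus not called, and the intervals leave room for differences of those sizes.

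RGS5, which is best known from pericytes, and RGS16 share the small size and the Gα preference of RGS4. The protein-coding RGS5 row (chr1:163111121-163321791, minus strand) held 9.63, 9.98, 12.7 and 13.5 CPM after PBS, 10.1, 11.5, 11.002 and 12.7 CPM after EGF 30 min, and 9.23, 13.5 and 15.0 CPM after EGF 60 min with control siRNA. The corresponding MSK2 siRNA libraries held 14.6, 16.4, 14.5 and 16.0 CPM, then 14.3, 16.9, 16.7 and 16.2 CPM, and then 14.7, 14.3 and 12.2 CPM. The siRNA groups did not overlap after PBS or EGF 30 min and did overlap after EGF 60 min. RGS5 was 1.36-fold higher with MSK2 siRNA after PBS (log2 fold change 0.45, SE 0.14; edgeR adjusted P = 0.0218) and 1.42-fold higher after EGF 30 min (0.50, SE 0.14; adjusted P = 0.00816). After EGF 60 min the log2 fold change was 0.12 (SE 0.16; adjusted P = 0.680) and ran from -0.05, without control siRNA EGF 60 min replicate 1, to 0.26, without control siRNA EGF 60 min replicate 3, over 14 alternatives, none of which called it. The call after PBS was lost in 5 of 16 alternatives, among them the fits without control siRNA PBS replicate 1 (log2 fold change 0.37, adjusted P = 0.0813), without control siRNA PBS replicate 2 (0.38, 0.0850) and without MSK2 siRNA PBS replicate 2 (0.42, 0.0561). RGS5 passed the filter in 18 of 22 libraries, and EGF moved it by -0.17 to 0.17 on the log2 scale without a call.

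Markers of pericytes and smooth muscle were given beside RGS5. Of 7 such markers 3 were tested, and MCAM was called lower with MSK2 siRNA in all 3 comparisons while the other tested markers, CSPG4 and NOTCH3, were not called. The summed level of the 7 was 140.2 to 253.0 CPM in control siRNA libraries with PBS and 147.4 to 190.2 CPM in MSK2 siRNA libraries with PBS. MYH11, DES, ABCC9 and KCNJ8, the markers not tested, reached at most 2.42, 1.88, 3.14 and 7.29 CPM. The tested MCAM, CSPG4 and NOTCH3 ranged from 28.1 to 64.7, 42.0 to 122.0 and 30.9 to 77.5 CPM. A second row labelled RGS5, ENSG00000232995, is an overlapping lncRNA of the same strand in GENCODE v44 that shares 534 exon bases with RGS5. Reads there can match both genes, and how such reads were counted is not known. This second row held 3 to 23 counts (0.197 to 1.91 CPM) and was not tested. RGS16 (chr1:182598623-182604389, minus strand) held 0 to 12 counts per library, or 0 to 0.796 CPM, and was not tested. Its highest values were 12 counts after EGF 30 min with MSK2 siRNA and 11 counts after EGF 30 min with control siRNA, in groups that also held libraries with 0 and 2 counts.

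RGS10 (chr10:119499817-119542719, minus strand), a small Gαi regulator best known from leukocytes and microglia, was lower with MSK2 siRNA in all treatments. The control siRNA libraries were at 93.6, 91.0, 86.2 and 97.7 CPM after PBS, at 80.9, 107.0, 109.6 and 81.3 CPM after EGF 30 min, and at 64.9, 81.0 and 72.2 CPM after EGF 60 min. With MSK2 siRNA the libraries were at 54.4, 51.1, 52.4 and 46.4 CPM, at 42.3, 38.3, 51.1 and 42.9 CPM, and at 44.05, 59.4 and 48.0 CPM. No MSK2 siRNA library reached the lowest control siRNA library. RGS10 fell by 0.85 on the log2 scale after PBS (SE 0.11; edgeR adjusted P = 8.74e-07), by 1.12 after EGF 30 min (SE 0.11; adjusted P = 8.53e-09) and by 0.53 after EGF 60 min (SE 0.13; adjusted P = 0.00338). With control siRNA the 60 min libraries were below the PBS libraries (log2 fold change -0.34, SE 0.12), a difference that was not called. With MSK2 siRNA the EGF values were -0.23 (SE 0.11) at 30 min and -0.01 (SE 0.12) at 60 min, also without a call.

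RGS17 and RGS19 belong to the family that acts on Gαi and Gαz. RGS17 (chr6:153004459-153131282, minus strand) was at 21.6, 23.4, 26.4 and 24.7 CPM after PBS, at 22.7, 30.6, 31.8 and 29.0 CPM after EGF 30 min, and at 29.3, 32.1 and 29.7 CPM after EGF 60 min with control siRNA. MSK2 siRNA libraries held 14.7, 17.5, 14.1 and 13.2 CPM, 15.5, 17.0, 15.3 and 16.2 CPM, and 19.6, 19.4 and 17.8 CPM in the same order of treatments. As for RGS10, every MSK2 siRNA library was below every control siRNA library, a separation whose share over all genes was not counted. The log2 fold changes with MSK2 siRNA were -0.69 (SE 0.11; edgeR adjusted P = 3.03e-05) after PBS, -0.84 (SE 0.11; adjusted P = 1.26e-06) after EGF 30 min and -0.68 (SE 0.13; adjusted P = 0.000249) after EGF 60 min. The 60 min libraries lay above the PBS libraries with either siRNA, by 0.34 (SE 0.12) on the log2 scale with control siRNA and by 0.35 (SE 0.12; edgeR adjusted P = 0.202) with MSK2 siRNA, and neither was called.

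RGS19 (chr20:64073181-64079988, minus strand) stayed between 12.4 and 22.3 CPM. Its log2 fold change with MSK2 siRNA was -0.12 (SE 0.14) after PBS, -0.34 (SE 0.14; edgeR adjusted P = 0.0631) after EGF 30 min and -0.21 (SE 0.16) after EGF 60 min. The 30 min value was called in 3 of 16 alternatives: with DESeq2 (adjusted P = 0.0487), without control siRNA EGF 30 min replicate 3 (adjusted P = 0.0387) and without control siRNA EGF 30 min replicate 4 (adjusted P = 0.0310). RGS20, a relative of RGS17 and RGS19 that is not among the 9, was called lower with MSK2 siRNA in all 3 comparisons, at log2 fold changes of -0.67, -0.71 and -0.73 (SE 0.13, 0.13 and 0.15).

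RGS3 (chr9:113444731-113597743, plus strand) and RGS12 (chr4:3293021-3439913, plus strand) encode the larger proteins. RGS3 ranged from 57.3 to 94.1 CPM. With control siRNA it stood at 68.6 to 85.3 CPM after PBS and 78.9 to 94.1 CPM after EGF 60 min, which overlap (log2 fold change 0.26, SE 0.10). With MSK2 siRNA the ranges were 64.0 to 74.7 CPM after PBS and 79.4 to 90.8 CPM after EGF 60 min, which do not overlap, and the log2 fold change of 0.32 (SE 0.10; interval 0.12 to 0.52) was not called (edgeR adjusted P = 0.122). The siRNA comparisons gave RGS3 log2 fold changes of -0.10, -0.13 and -0.04, and the first was -0.02 without control siRNA PBS replicate 1. RGS12 stayed at 32.7 to 47.2 CPM, with log2 fold changes between -0.10 and 0.14 in the 7 comparisons of EGF with PBS and of siRNAs. Its intervals in the siRNA comparisons ran from -0.31 to 0.16 on the log2 scale at the widest.

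**Figure D4:**
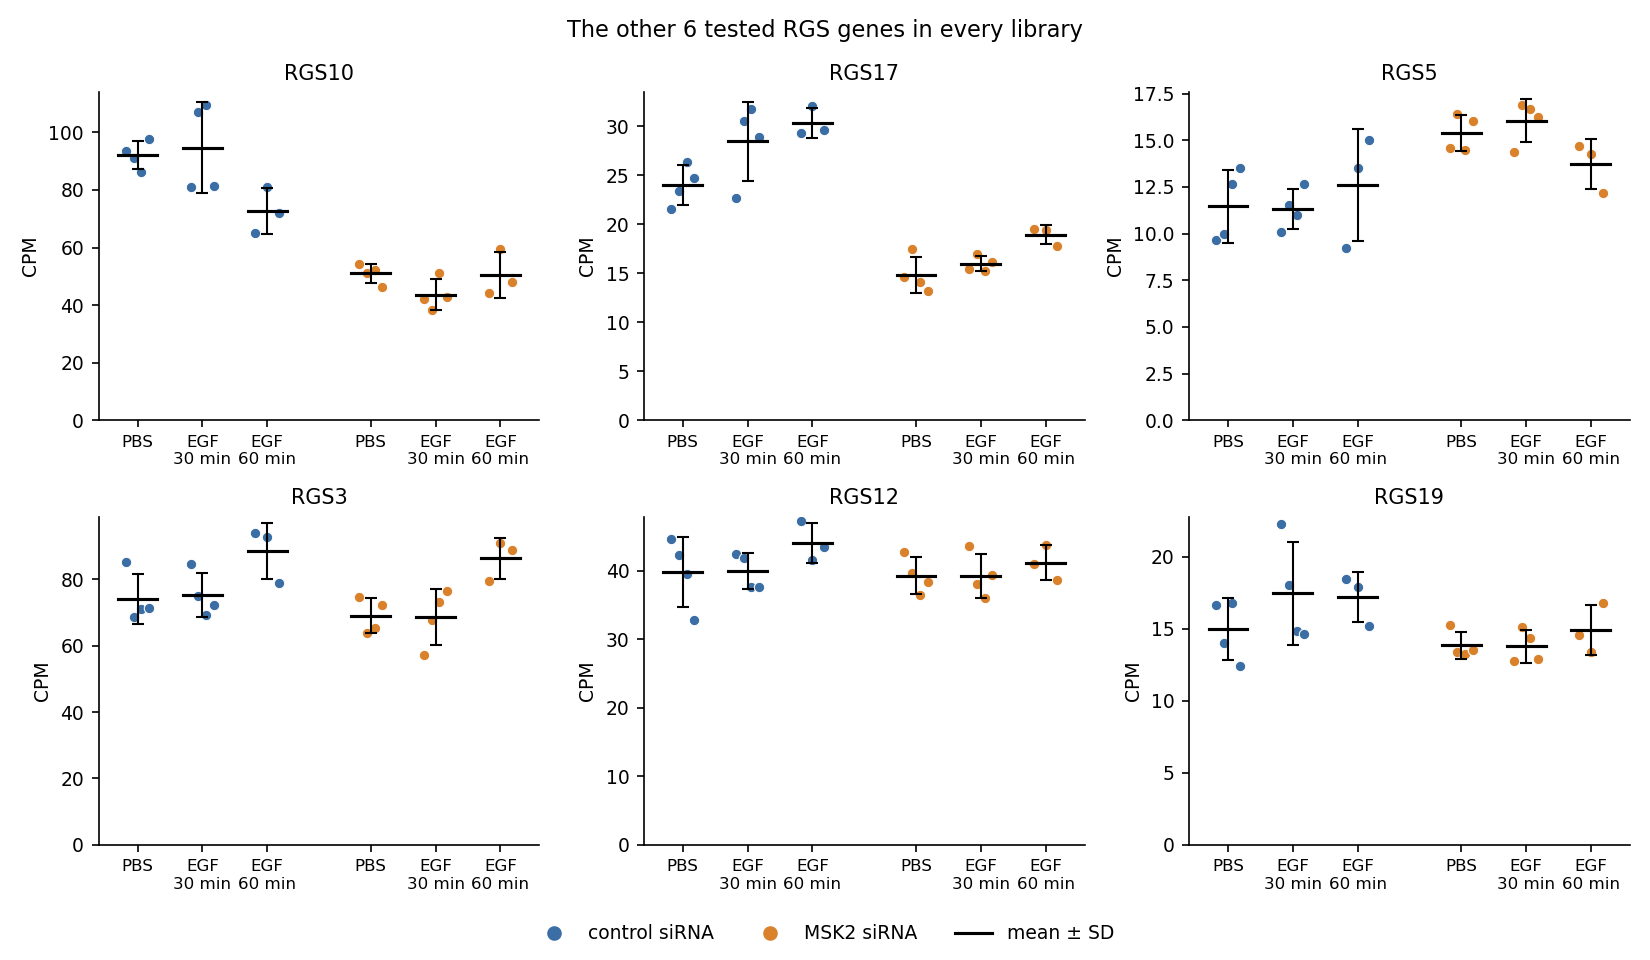
CPM of RGS10, RGS17, RGS5, RGS3, RGS12 and RGS19 in each of the 22 libraries (points), with the mean and SD of each group, for control siRNA (blue) and MSK2 siRNA (orange). For RGS10 and RGS17 all orange points are below all blue points, and for RGS12 and RGS19 the colours overlap.

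**Figure D5:**
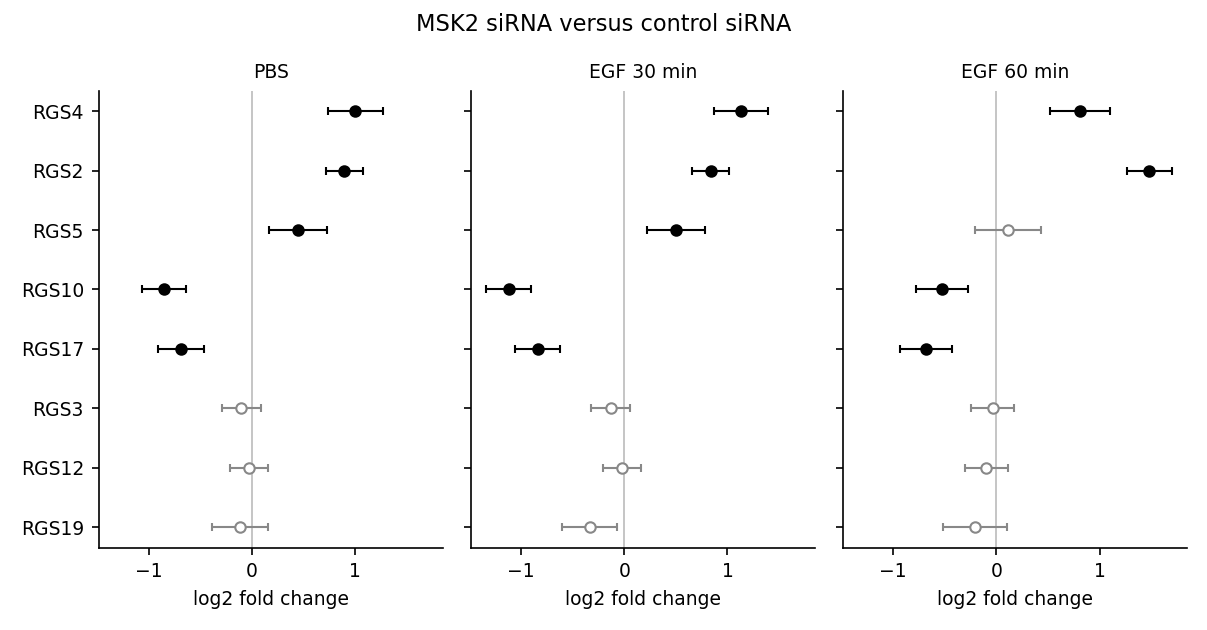
Log2 fold change of MSK2 siRNA against control siRNA (horizontal axes) for the 8 tested RGS genes after PBS, EGF 30 min and EGF 60 min, with approximate 95% intervals. Filled points have an edgeR adjusted P under 0.05. RGS2 and RGS4 are filled to the right and RGS10 and RGS17 to the left in all 3 panels, and RGS5 is filled after PBS and EGF 30 min.

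Of the 12 other genes with an RGS symbol, RGS20 alone passed the filter. RGS9 stood at 5.07 to 8.85 CPM and RGS14 at 1.19 to 4.49 CPM, and the remaining 9 (RGS1, RGS6, RGS7, RGS8, RGS11, RGS13, RGS18, RGS21 and RGS22) reached at most 1.45 CPM. RGS21 had 0 counts in every library. Among 14 proteins of other families with an RGS domain, 10 were tested and EGF called 0 in the 4 comparisons (1, 3, 0 and 0 at an unadjusted P under 0.05, edgeR). Over all 9770 genes the same comparisons called 60, 259, 76 and 211, with 485, 1093, 957 and 838 at that unadjusted level. GRK5, a kinase that switches off activated receptors, was lower with MSK2 siRNA by log2 values of -0.75, -0.56 and -0.69 after PBS, EGF 30 min and EGF 60 min, and SNX13 was higher after EGF 30 min and GRK6 lower after EGF 60 min. In that order 1, 1 and 2 of the 10 were called lower, beside 12.6%, 15.2% and 10.1% of all genes. Called higher were 0, 1 and 0, beside 12.2%, 14.9% and 9.37%. Of 8 tested partners and regulators of RGS proteins, GPSM2, which binds inactive Gαi, was called and was higher with MSK2 siRNA in all 3 comparisons (0.37, 0.38 and 0.41). A count of 1 of 8 is near the shares of all genes called higher (12.2%, 14.9% and 9.37%). ATE1, UBR1 and UBR2, the N-degron enzymes that act on RGS4, RGS5 and RGS16, were not called in any comparison.

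The Gα subunits on which RGS proteins act were not called after EGF, with 0 of 8 at any unadjusted P under 0.05 in the 4 EGF comparisons (edgeR). With MSK2 siRNA, GNAI1 was higher in all 3 comparisons (log2 fold change 0.40, 0.49 and 0.39). GNA12 was lower in all 3 (-0.41, -0.33 and -0.37), as was GNAI2 (-0.16, -0.26 and -0.22), while GNAI3 and GNAQ were lower after PBS and EGF 30 min. Over the 3 comparisons 4, 4 and 2 of the 8 were called lower, beside 12.6%, 15.2% and 10.1% of all genes. GNAI1 was the 1 called higher each time, beside 12.2%, 14.9% and 9.37%. Of 7 tested Gβ and Gγ genes, 2, 3 and 3 were called lower and 1, 2 and 1 higher, beside the same shares of all genes. GNB1 and GNB4 were lower and GNG11 higher in all 3 siRNA comparisons, and GNG12 was higher after EGF 30 min (0.23).

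Among 35 receptors listed, 20 were tested. EGF for 60 min with control siRNA called 3 higher, the sphingosine phosphate receptor S1PR2 (log2 fold change 0.54, SE 0.10), the bradykinin receptor BDKRB1 (0.39, SE 0.08) and the prostaglandin receptor PTGER4 (0.61, SE 0.16), beside 2.5% of all genes. With MSK2 siRNA 1 of the 20, BDKRB1 (0.36, SE 0.08; edgeR adjusted P = 0.00520), was called higher beside 2.11%. With MSK2 siRNA 10, 10 and 8 of 20 receptors were called lower after PBS, EGF 30 min and EGF 60 min, beside 12.6%, 15.2% and 10.1% of all genes. The serotonin receptor HTR2B and the prostaglandin receptor PTGFR were called higher each time, and 2 of 20 is near the shares of all genes called higher (12.2%, 14.9% and 9.37%). The receptor for lysophosphatidic acid LPAR1 was at -0.92, -0.82 and -0.92 and the prostaglandin receptor PTGER2 at -1.001, -1.01 and -0.95 on the log2 scale. The median over the 20 receptors was -0.32, -0.30 and -0.34, against 0.00, 0.01 and 0.01 over all genes. Of 18 tested effectors, the calcineurin inhibitor RCAN1 was higher after EGF 60 min with either siRNA (0.46 and 0.46, SE 0.11 each). It was the 1 effector called there, beside 2.5% and 2.11% of all genes called higher. With MSK2 siRNA 3, 5 and 2 of the 18 were called higher after PBS, EGF 30 min and EGF 60 min, beside 12.2%, 14.9% and 9.37%. In the same order 4, 1 and 1 were called lower, beside 12.6%, 15.2% and 10.1%. The calcium channel ITPR2 was higher in all 3 comparisons (1.02, 1.16 and 1.27), and RCAN1 was lower after PBS (-0.29) and EGF 30 min (-0.36).

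The genes whose levels followed each member most closely over the 22 libraries are given as a description, since the libraries share their group structure. RGS2 was followed by PPP1R3C (Pearson r of log2(CPM + 0.5) = 0.91), GPNMB (0.91) and CD9 (0.90), and RGS4 by EZR (0.96), SLC20A1 (0.95) and TNFRSF10D (0.94). RGS10 was followed by HEBP2 (0.98), NQO1 (0.97) and PTGR1 (0.96), and RGS17 by IDI1 (0.96), CDR2 (0.95) and ACTG1 (0.94). For RGS5 the closest were GXYLT1 (0.87), SNAP29 (0.86) and ABHD5 (0.86), and for RGS3 they were TNFRSF12A (0.87), CCDC85B (0.81) and ATG101 (0.80). The levels of RGS12 (ATXN7L2, 0.80; AGAP3, 0.78; VAV2, 0.77) and RGS19 (NOP16, 0.77; ZMYND19, 0.77; MUS81, 0.77) were followed less closely. Among the 28 pairs of tested members, r ran from -0.85 between RGS17 and RGS2 to 0.80 between RGS17 and RGS10, and for RGS2 and RGS4, the members called after EGF, it was 0.18.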

How the data were processed

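Total RNA of 22 samples was sequenced with a kit that does not mark strand. Per the labels and the study's methods, the authors demultiplexed reads with bcl2fastq 2.20.0.422, aligned them to hg38 with STAR 2.7.9a and assigned them to genes with HTSeq 0.13.5. The deposited values are raw counts per gene and sample, with 5 summary lines of HTSeq (18.3 to 22.4% of each total) that were left out here. The annotation release and counting options are not given in the sources used here.

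Genes above 10 CPM in at least 2 of 22 libraries were kept, as in the study. Counts were fitted with edgeR 4.0.16 (R 4.3.3, TMM, quasi-likelihood F test, 1 mean for each of 6 groups, all libraries). Each of 9 comparisons had a Benjamini-Hochberg adjustment over all 9770 genes. The standard error is the absolute log2 fold change over the root of F, and the 95% interval is a normal approximation. Such an interval is narrower than the F test implies. For RGS10 after EGF 30 min with MSK2 siRNA it leaves out 0 (-0.443 to -0.008) at an unadjusted edgeR P of 0.0520. The study used edgeR's exact test, run here as an alternative beside DESeq2 1.42.0, other scalings and filters, the compared groups alone, a replicate block and each library left out. CPM scale counts to a library of 1000000, using the TMM-scaled library size over tested genes, and RPKM divide CPM by merged exon length in GENCODE v44. Correlations used log2(CPM + 0.5). The scripts were tested on simulated data. Libraries of a group differed by more than sampling noise (chi-square divided by its degrees of freedom, 5.05 to 31.8 in 30 pairs).

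Replicate numbers were checked for pairing from the correlation of deviations from group means. They paired control siRNA PBS with MSK2 siRNA PBS (r 0.143 to 0.500 over 4 pairs) and none of the other 14 pairs of groups; the reported fit has no replicate block.

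The 9 members, the lists and the naming rule were chosen with earlier results of these data known. From each list at most the 3 called genes with the smallest P in a comparison were named. Where the rule left them out, HTR2B, PTGFR, GNAI2, GNAI3, GNAQ, GNG11 and RCAN1 were named after their values were seen. Promoter windows came from RefSeq (250 bases before to 50 after a start; all 9 members matched), and the 2 printed stretches equal the hg38 sequence.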

Additional observations from a re-analysis of the deposited data

Results flagged for a closer look

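Of 32 groups of 4 libraries tested over the 8 genes, 3 had a library far from the others, with a gap to its neighbour, relative to the group's range, above the critical value of Dixon's test; chance flags about 1 in 20 groups. RGS4 in control siRNA PBS replicate 4, the library with the lowest depth, was at 33.2 CPM. Without that library the log2 fold change of RGS4 was 1.47 instead of 1.32 for EGF 60 min with control siRNA and 1.15 instead of 1.00 for MSK2 siRNA after PBS. RGS3 in control siRNA PBS replicate 1 was at 85.3 CPM, and without it the EGF 60 min value with control siRNA was 0.34 instead of 0.26 and stayed uncalled (edgeR adjusted P = 0.0814), while the siRNA value after PBS was -0.02 instead of -0.10. RGS19 in MSK2 siRNA PBS replicate 1 was at 15.2 CPM, and without it the siRNA value after PBS was -0.17 instead of -0.12, also uncalled.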

How the results depend on the processing

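The number of members called stayed within 1.5 times the reported number in all 9 comparisons under every alternative run. Of 18 called member values, 17 kept their call and direction throughout. The exception was RGS5 for MSK2 siRNA after PBS, whose log2 fold change of 0.45 lost its call in 5 of 16 alternatives: without a filter on low counts (0.43, edgeR adjusted P = 0.0853), with the compared groups alone (0.44, adjusted P = 0.0553) and without each of 3 libraries (0.37 to 0.42); over all 16 the adjusted P ran from 0.00993 to 0.0853. RGS19 for MSK2 siRNA after EGF 30 min gained a call in 3 of 16 (adjusted P from 0.0310 to 0.269). With the replicate block the paired comparison of siRNAs after PBS still called 5 members, with RGS5 at 0.45, and it changed no other call of a member; RGS2 at 60 min stayed uncalled as an interaction (0.58, adjusted P = 0.205 with the block, and 0.176 to 1.00 over 21 alternatives). In 78 of 940 settings of uncalled values the sign changed, and 82 of 2128 settings moved a list count by over 1.5 times; the cause was not tested.

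Over all genes, dropping the filter on low counts, which raises the number of genes tested to 48630, raised the calls for EGF 30 min with MSK2 siRNA from 76 to 216 and those of the interactions from 0 to 49 at 30 min and from 0 to 4 at 60 min. For groups that share only a replicate number, the replicate block moved the calls over all genes from 76 to 99 for EGF 30 min and from 211 to 235 for EGF 60 min with MSK2 siRNA, from 2940 to 3177 and from 1897 to 2102 for the siRNAs after EGF 30 and 60 min, and from 0 to 2 for the interaction at 60 min. The exact test gives no interaction and was not run for it. At 7893209 to 22244216 counts per library, RGS16 and the second RGS5 row were too low to test.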
